A study of Mus musculus with 6 samples.

Results

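The genes described here are bone morphogenetic protein (BMP) ligands, secreted antagonists and a decoy receptor, read in the Müllerian duct, the forerunner of oviduct and uterus, of E17.5 mouse embryos, late in gestation. They are the rows of the deposited table whose gene symbol is Bmp2, Bmp4, Bmp5, Bmp6, Bmp7, Grem1, Nog, Chrdl1 or Bambi. Each of the 9 genes had 1 row, out of 19505 gene symbols and 22206 transcript clusters in all. The members and the gene lists were chosen with earlier results of these data known.

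RNA of 6 ducts was measured on Affymetrix arrays, 1 array for each embryo. The 3 control embryos had the genotype Lats1f/f,Lats2f/f, that is, floxed alleles of both Hippo pathway kinases and no Cre. The 3 mutant embryos had the same floxed alleles and Amhr2cre/+, so Cre recombinase was expressed from the locus of the anti-Müllerian hormone receptor, which is active in the mesenchyme around the duct. The mutants therefore differ from the controls in Cre at Amhr2 as well as in deletion of the kinases, and no control with Cre alone is among the groups used here. The labels used here name neither strain nor sex. Amhr2 itself was lower in the mutants, with a log2 fold change of -3.73 ± 0.25 (SE, limma adjusted p = 0.000112). Lats1 had a log2 fold change of -0.78 ± 0.21 (SE, limma adjusted p = 0.0958) and Lats2 of 0.22 ± 0.21 (limma adjusted p = 0.684). The exons covered by these probe sets are not stated in the labels or files, and the rows therefore do not test the deletion.

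Values are log2 signals, so a difference of 1 is a doubling, and signals of different genes are not compared because each has its own probes. The median of the antigenomic probes of an array, from 5.35 to 5.88, is called its background below. The negative-control rows of the arrays had higher medians, from 7.09 to 7.41. A signal between these levels is above background but below the negative-control median, and is read as weak. The median of all transcript clusters, from 6.87 to 6.95, also lay below the negative-control median on every array. A signal below that level is therefore common and not particular to the genes named here. Müllerian mesenchyme markers were above background for 9 of 10 genes on every array, with Hoxa13 below it throughout, and epithelial markers for 8 of 9, with Lhx1 below it throughout. Control 3 stood apart. Its mean signal over 8 urothelial markers was 10.45, against 5.98 to 6.37 on the other 5 arrays, and over 9 smooth muscle markers 12.11, against 9.15 and 10.26 in the other controls and 10.33 to 10.77 in the mutants. Upk2, a defining urothelial gene, was at 12.21 in control 3 and below background on the other 5 arrays. In whole ducts, a change in the number of cells of a type and a change in RNA per cell cannot be told apart.

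BMPs are secreted ligands of the TGF-beta superfamily. They bind type I and type II serine/threonine kinase receptors, which phosphorylate SMAD1, SMAD5 and SMAD9, and these enter the nucleus with SMAD4 and switch on targets such as the Id genes. Gremlin, noggin and the chordin-like proteins bind the ligands outside the cell and keep them from their receptors, while BAMBI is a transmembrane pseudoreceptor without a kinase domain. BMPs take part in the growth of the urogenital tract, where they are exchanged between mesenchyme and epithelium.

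Of the 9 genes, the ligand Bmp4 and the antagonists Grem1 and Nog rose in mutant ducts, none fell and 6 did not pass the threshold of 0.05 on the limma adjusted p. Over all transcript clusters 3.26% passed in either direction, 2.59% as rises and 0.666% as falls. The median log2 fold change of the 9 genes was 0.19, against -0.01 over all transcript clusters. The mutant and control arrays did not overlap for 3 of the 9, which were the same 3, and for 21.1% of all transcript clusters.

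**Figure D1:**
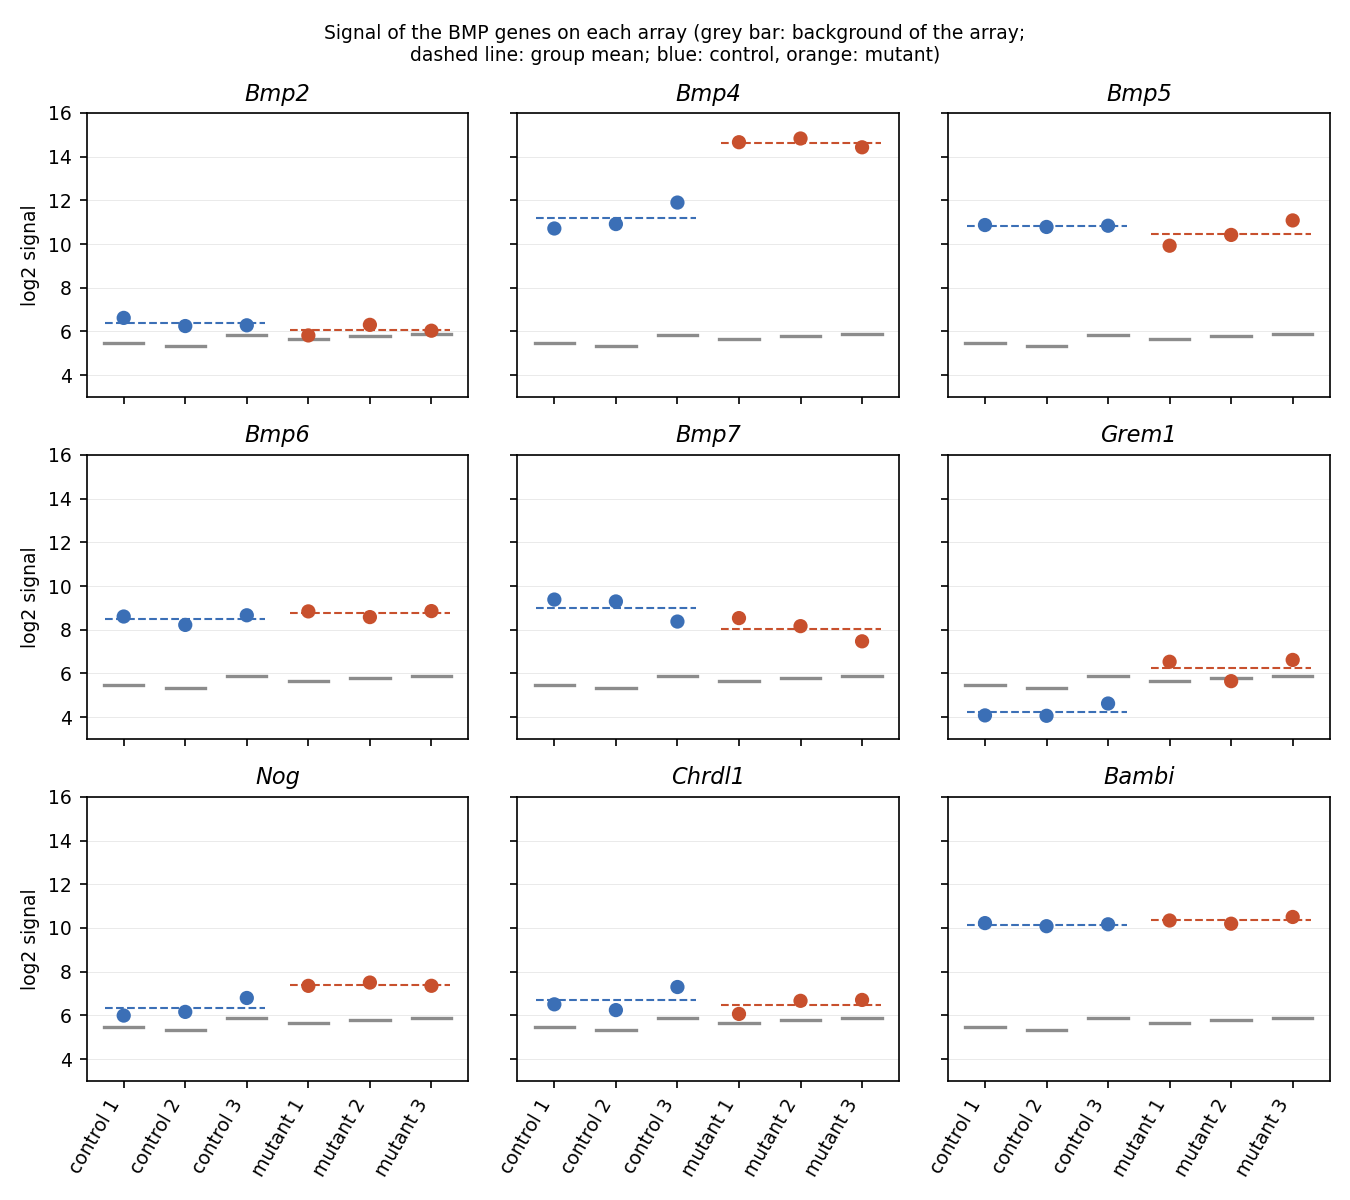
Log2 signal (vertical axis) of each of the 9 genes on the 3 control arrays (blue) and the 3 mutant arrays (orange), with group means as dashed lines and the background of each array as a grey bar. Bmp4 is far higher on all mutant arrays, Grem1 lies below the grey bars in the controls and near or above them in the mutants, and the other panels, apart from Nog, overlap between groups.

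Bmp4 encodes the ligand that, among many roles, patterns mesoderm and acts in mesenchyme of the developing urogenital tract. Its log2 signal was 10.71 in control 1, 10.92 in control 2 and 11.90 in control 3. In the mutants it was 14.66, 14.83 and 14.43. All mutant arrays were high, and the lowest of them lay 2.53 above the highest control, which was control 3. The group means were 11.18 ± 0.63 and 14.64 ± 0.20 (SD, n = 3 each), an 11.05-fold rise (log2 fold change 3.47 ± 0.29, SE, 95% interval from 2.80 to 4.13, limma adjusted p = 0.000348). Only 18 of the 22206 transcript clusters had a larger log2 fold change, so Bmp4 was 19th by size among the 575 called rises. The spread among controls came mostly from control 3, and without that array the log2 fold change was 3.83 ± 0.20 (SE, limma adjusted p = 5.36e-05). The call held in each of the 6 leave-one-out fits, with log2 fold changes from 3.23 to 3.83.

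Grem1 encodes gremlin, a secreted cystine-knot protein that binds BMP2, BMP4 and BMP7. Its control signals of 4.08, 4.06 and 4.62 were all below the background of their arrays. The mutant signals were 6.53, 5.64 and 6.62, of which that of mutant 2 was also below background. The groups did not overlap, with a gap of 1.02 between the highest control and the lowest mutant. The log2 fold change was 2.01 ± 0.28 (SE, 95% interval from 1.38 to 2.64, limma adjusted p = 0.00478), but its size is of little precision because the control level is only bounded. With each control array set to its background, the mutant mean was 1.63-fold higher. All mutant signals lay below the negative-control medians of their arrays, so by that measure no rise is bounded. The call held in each of the 6 leave-one-out fits (limma adjusted p from 0.00252 to 0.0294).

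The upstream sequence of both genes is shown because Bmp4 and Grem1 are the members whose calls did not depend on any single array. RefSeq promoters were at hand for 4 of the 9 genes (Bmp4, Grem1, Bmp5 and Bmp6, build GRCm38.p6). The 250 bases before the annotated start are printed 5′ to 3′ on the strand of the gene, with motif matches in capitals.
Bmp4, chr14:46390670-46390919, minus strand: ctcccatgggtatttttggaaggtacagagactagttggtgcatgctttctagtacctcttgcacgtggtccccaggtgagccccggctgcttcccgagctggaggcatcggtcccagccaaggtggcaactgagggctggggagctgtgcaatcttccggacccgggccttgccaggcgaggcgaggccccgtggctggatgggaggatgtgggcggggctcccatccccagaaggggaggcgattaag
Grem1, chr2:113758649-113758898, minus strand: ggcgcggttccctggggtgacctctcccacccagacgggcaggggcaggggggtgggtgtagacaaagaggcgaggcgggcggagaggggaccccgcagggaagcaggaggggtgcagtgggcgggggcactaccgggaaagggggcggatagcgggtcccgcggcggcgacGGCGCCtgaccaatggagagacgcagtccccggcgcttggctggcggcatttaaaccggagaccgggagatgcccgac

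Of the letters searched on both strands, GGAATG is the core bound by TEAD factors, the DNA-binding partners of YAP and TAZ, TGANTCA is bound by AP-1, and GGCGCC is a GC-rich element bound by BMP-activated SMADs. Neither TEAD nor AP-1 letters were found in the 4 windows, where 12.6% and 6.75% of 32851 promoter windows of this length hold them. GGCGCC was found once, in Grem1, starting 78 bases before the gene's start, and 9.59% of windows hold it. It overlaps no other motif. The windows of Bmp4 and Grem1 were 63.2% and 72.0% G and C, beside 68.8% in Bmp6 and 42.8% in Bmp5, with a median of 52.4% over all windows. A match is only a match of letters, and a window without one says nothing about binding elsewhere.

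Nog encodes noggin, which holds BMP2, BMP4 and BMP7 in an inactive complex. Its control signals were 5.99, 6.16 and 6.80, and its mutant signals 7.35, 7.50 and 7.35. The mutant arrays lay close together and above all controls, by 0.56 over control 3, the highest of them. All 6 signals were above the background probes, but the controls lay below the median of the negative-control rows of their arrays. The means were 6.31 ± 0.42 and 7.40 ± 0.09 (SD, n = 3 each), a 2.12-fold rise (log2 fold change 1.09 ± 0.22, SE, 95% interval from 0.59 to 1.59, limma adjusted p = 0.0305). With 5 arrays the change was of about the same size but the call was lost in 5 of 6 cases. These were without control 1 (log2 fold change 0.92, limma adjusted p = 0.121), control 2 (1.01, 0.116), mutant 1 (1.11, 0.0927), mutant 2 (1.04, 0.105) or mutant 3 (1.11, 0.0842). Without control 3 the log2 fold change was 1.33 ± 0.19 (SE, limma adjusted p = 0.00638).

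Chrdl1 encodes chordin-like 1, another secreted antagonist, which binds BMP4 among other ligands. Its signals were 6.51, 6.24 and 7.30 in the controls and 6.07, 6.67 and 6.71 in the mutants. The groups overlapped, with control 3 the highest of all 6 arrays. Only control 3 lay above the median of its negative-control rows. The log2 fold change was -0.20 ± 0.29 (SE, 95% interval from -0.86 to 0.45, limma adjusted p = 0.808), and without control 3 it was 0.11, so no direction can be given.

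Bambi encodes the decoy receptor, which is itself induced by BMP signalling in many tissues. Its signals were 10.22, 10.08 and 10.17 in the controls and 10.34, 10.20 and 10.50 in the mutants. The controls lay within 0.14 of each other, and mutant 2 fell among them. The log2 fold change of 0.19 ± 0.16 (SE, limma adjusted p = 0.650) had a 95% interval from -0.18 to 0.56.

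The other ligands did not pass the threshold. Bmp7, which is made by epithelium of the urogenital tract among other sites, was at 9.38, 9.29 and 8.37 in the controls and 8.53, 8.16 and 7.47 in the mutants. Control 3 lay among the mutant arrays, and the other controls lay above all of them. Its log2 fold change of -0.96 ± 0.33 (SE) had its 95% interval from -1.71 to -0.22 and a limma adjusted p of 0.192. Leaving out 1 array at a time gave values from -1.28 ± 0.29 (SE) without control 3 (limma adjusted p = 0.0567) to -0.67 without mutant 3 (0.406), and none passed. Mutant 3, which had the lowest Bmp7, also had the lowest mean over 9 Müllerian epithelial markers, 8.51, beside 9.35 in both other mutants and 8.83, 8.78 and 9.38 in the controls. Among them Pax2 (6.80), Pax8 (8.57), Wnt7a, Emx2 and Cdh1 were at their lowest of the 6 arrays in mutant 3. Epcam, Krt8, Krt18 and Lhx1 were not, and Krt8 and Krt18 were lower in control 1 and control 2. The part of these markers in the Bmp7 values was not tested.

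Bmp5, a ligand of the same subgroup as Bmp6 and Bmp7, was at 10.87, 10.78 and 10.84 in the controls and at 9.92, 10.42 and 11.08 in the mutants. The controls lay within 0.09 of each other, whereas the mutants spread over 1.16, with mutant 1 and mutant 2 below the controls and mutant 3 above them. The log2 fold change was -0.36 ± 0.27 (SE, 95% interval from -0.96 to 0.24, limma adjusted p = 0.596).

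Bmp6 was at 8.60, 8.22 and 8.66 in the controls and 8.84, 8.58 and 8.85 in the mutants, with mutant 2 within the control range. Its 95% interval ran from -0.15 to 0.68 around a log2 fold change of 0.26 ± 0.18 (SE, limma adjusted p = 0.570). Bmp2, the closest relative of Bmp4, was weak, at 6.62, 6.25 and 6.28 in the controls and 5.82, 6.30 and 6.03 in the mutants. All of these lay above background but below the medians of the negative-control rows. Its log2 fold change was -0.33 ± 0.19 (SE, 95% interval from -0.76 to 0.10, limma adjusted p = 0.472). At such weak signals the size of a change is of little precision, and the interval does not exclude a rise.

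**Figure D2:**
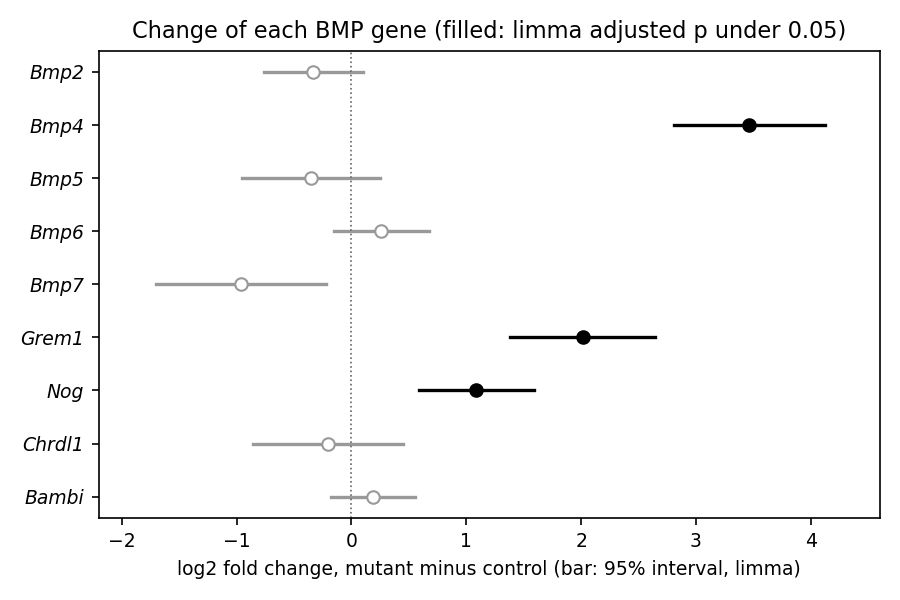
Log2 fold change of mutant against control (horizontal axis, points) with its 95% interval from limma (bars) for each of the 9 genes, over 3 arrays a group. The intervals of Bmp4 (2.80 to 4.13), Grem1 and Nog lie above 0 and these genes are filled as called. Bmp7 lies below 0 (-1.71 to -0.22) but did not pass the adjusted threshold.

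The size of the Bmp4 rise was set against that of 5 other members by taking the log2 difference on each array and comparing it between groups. Bmp4 rose by 2.38 ± 0.15 (SE) more than Nog. The difference was 3.28 ± 0.42 against Bambi, 3.80 ± 0.46 against Bmp2 and 4.43 ± 0.73 against Bmp7. The Nog controls and all Bmp2 signals lay below the negative-control medians of their arrays, so the sizes against these genes are of little precision. No difference is given against Grem1, the fifth, because its control level is only bounded. In each of the other 4 pairs all 3 mutant arrays lay above all 3 control arrays. The exact two-sided permutation p was 0.1 for each pair, before and after adjustment over the 5, and this is the smallest that 3 against 3 arrays can give.

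Genes whose pattern over the 6 arrays was nearest to that of a called member were found by Euclidean distance between deviations from each gene's mean, among 12386 rows that had a symbol and were above background on at least 3 arrays. Nearest to Bmp4 were Ier3 (distance 0.68), Bhlhe40 (0.70), Rcan2 (0.81), Gadd45g (0.82) and Plaur (0.85). Their log2 fold changes ran from 3.12 for Ier3 to 3.97 for Rcan2. Nearest to Nog were Elovl1 (0.23), Tpst2 (0.26), Man1c1 (0.27), Bcam (0.28) and Cebpd (0.31). None are given for Grem1, which was above background on only 2 arrays. The distance includes the size of the difference between the genotypes, so genes with a like change lie near whatever else they do.

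Other BMP pathway genes were read from lists by role. Together 63 of 67 listed genes were measured, of which 5 rose, 1 fell and 57 did not pass, with a median log2 fold change of 0.10. Over all transcript clusters 2.59% rose and 0.666% fell, with a median of -0.01.

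Among 12 other ligands of the BMP and GDF group, Gdf6 and Bmp8b rose and none fell. Gdf6, a ligand known for its part in joint and eye formation, was at 4.66, 4.47 and 4.77 in the controls, all below background, and at 7.28, 6.74 and 6.34 in the mutants, all above it. With each control array set to its background, the mutant mean was 2.35-fold higher. Mutant 2 and mutant 3 lay below the negative-control medians of their arrays, so the size of the rise is of little precision. The fitted log2 fold change was 2.15 ± 0.24 (SE, limma adjusted p = 0.00143). Bmp8b passed (limma adjusted p = 0.0424) at signals below background on every array of both groups, so no fold is given. Its call was lost without control 1 (limma adjusted p = 0.162), control 2 (0.128), mutant 1 (0.155) or mutant 3 (0.132). Bmp3, named after its values were seen, was at 7.21 and 7.03 in control 1 and control 2, at 9.74 in control 3 and from 8.17 to 8.41 in the mutants. Its log2 fold change was 0.28 ± 0.60 (SE, limma adjusted p = 0.880) over all arrays and 1.15 ± 0.19 (limma adjusted p = 0.0139) without control 3, and it was -0.11 without control 1 and -0.20 without control 2. Gdf7 had a log2 fold change of -0.39 ± 0.29 (SE, limma adjusted p = 0.584). Of the 12 ligands, 6 were below background on all arrays, Bmp8a, Bmp15 and Gdf2 among them, with limma adjusted p from 0.629 to 0.683.

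Among 13 other extracellular antagonists and modulators, Bmper, Fst and Fstl3 rose and none fell. Bmper encodes a secreted protein that binds BMPs and can restrain or promote their action. It was at 8.51, 8.28 and 8.43 in the controls and 9.32, 9.69 and 10.03 in the mutants, and its log2 fold change was 1.27 ± 0.21 (SE, limma adjusted p = 0.0105). Fst and Fstl3 encode follistatin and a follistatin-like protein, which bind activins most strongly and some BMPs as well. Fst rose by 1.94 ± 0.29 (limma adjusted p = 0.00714) and Fstl3 by 2.08 ± 0.29 (limma adjusted p = 0.00509), and for both no control array reached a mutant array. The calls of these 3 genes held in each of the 6 leave-one-out fits. Chrd, which encodes chordin, had a 95% interval from -0.48 to 0.24 around its log2 fold change of -0.12 ± 0.16 (SE). Twsg1, which encodes a chordin partner, had one of -0.52 ± 0.16 (SE, limma adjusted p = 0.159), and its arrays did not overlap between groups. Chrdl2 had a log2 fold change of 0.55 ± 0.21 (SE, limma adjusted p = 0.250), Fstl1 of 0.56 ± 0.24 (0.311) and Cer1 of 0.39 ± 0.35 (0.663).

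None of 11 receptors and co-receptors passed in the limma fit, although 4 had an unadjusted p under 0.05, all with higher mutant means. Over all transcript clusters 15.3% had such a p. None passed under any of the 14 alternative settings either. These 4 were Eng (log2 fold change 0.54 ± 0.17), Acvr1 (0.51 ± 0.18), Bmpr2 (0.50 ± 0.17) and Acvr2a (0.47 ± 0.20, each with its SE), which encode the co-receptor endoglin, a type I receptor and type II receptors. Their limma adjusted p ranged from 0.167 to 0.310. The type I receptor gene Bmpr1a had a log2 fold change of 0.04 ± 0.16 (SE, 95% interval from -0.33 to 0.41).

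None of 11 SMADs, SMURF ubiquitin ligases and BMP1-type proteases passed in the limma fit, and 6 had an unadjusted p under 0.05, of which 5 had higher mutant means, beside the 15.3% of all transcript clusters. The inhibitory Smad6, a known feedback target of BMP signalling, was at 9.56, 9.48 and 9.60 in the controls and 10.30, 10.05 and 10.79 in the mutants. Its arrays did not overlap, and its log2 fold change was 0.83 ± 0.21 (SE, limma adjusted p = 0.0733). Smad6 passed once dim rows, those below the median signal, were removed (0.0339) and with a trended and robust variance prior (0.0359). These were 2 of the 8 alternatives with all arrays. Smad6 passed in none of the 6 leave-one-out fits (limma adjusted p from 0.0542 to 0.199). Smad9 had a log2 fold change of 0.66 ± 0.21 (SE, limma adjusted p = 0.167) and Smurf1 of 0.48 ± 0.16 (limma adjusted p = 0.174). The signal transducer Smad5 had one of -0.52 ± 0.16 (SE, limma adjusted p = 0.156), which passed with the trended and robust prior (0.0315). That was 1 of the 8 alternatives with all arrays. Smad5 too passed in none of the 6 leave-one-out fits (limma adjusted p from 0.185 to 0.390).

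Of 16 measured target genes, Sp7 fell, none rose and 15 did not pass, with a median log2 fold change of -0.03. Sp7 encodes osterix, an osteoblast factor. It was at 6.94, 6.97 and 7.49 in the controls and 6.01, 6.41 and 6.03 in the mutants. On every array but control 3, Sp7 lay below the median of the negative-control rows. Its fall of 0.98 (SE 0.21, limma adjusted p = 0.0359) did not pass in 5 of the 6 leave-one-out fits, where its log2 fold change stayed between -1.11 and -0.80, with limma adjusted p of 0.0755 without control 1, 0.0735 without control 2, 0.0847 without control 3, 0.135 without the array of mutant 1 and 0.117 without that of mutant 3. With the replicate block it was 0.0649.

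The Id genes encode inhibitors of basic helix-loop-helix factors and are direct BMP targets in many cells. Id1 was at 13.94, 13.63 and 14.12 in the controls and 14.10, 14.15 and 13.23 in the mutants, and the groups overlapped. Its 95% interval ran from -0.66 to 0.53 around a log2 fold change of -0.07 ± 0.26 (SE, limma adjusted p = 0.938). Id2 had a log2 fold change of -0.18 ± 0.18 (SE) and Id4 of -0.72 ± 0.27 (SE, limma adjusted p = 0.250). Id3 was at 11.12, 10.73 and 10.99 in the controls and 11.56, 11.54 and 11.54 in the mutants, which did not overlap. Its log2 fold change was 0.60 ± 0.17 (SE, limma adjusted p = 0.106), and it passed without rows under the median signal (0.0436) and with the trended and robust prior (0.0470). These were 2 of the 8 alternatives with all arrays. Id3 passed in none of the 6 leave-one-out fits (limma adjusted p from 0.159 to 0.264). Msx2, a homeobox gene that BMPs induce in limb and skull, was at 8.16, 8.41 and 9.20 in the controls and 10.00, 10.32 and 8.12 in the mutants. Mutant 3 lay below every control. Without it the log2 fold change of 0.89 ± 0.52 (SE, limma adjusted p = 0.474) became 1.57 ± 0.31 (limma adjusted p = 0.0452). Msx2 did not pass in the other 5 leave-one-out fits, where the change went down to 0.47 and the limma adjusted p up to 0.754. It passed under none of the 8 alternatives with all arrays (limma adjusted p from 0.278 to 0.586). Dlx3, below background on every array, had a log2 fold change of -0.45 ± 0.20 (SE, limma adjusted p = 0.325).

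**Figure D3:**
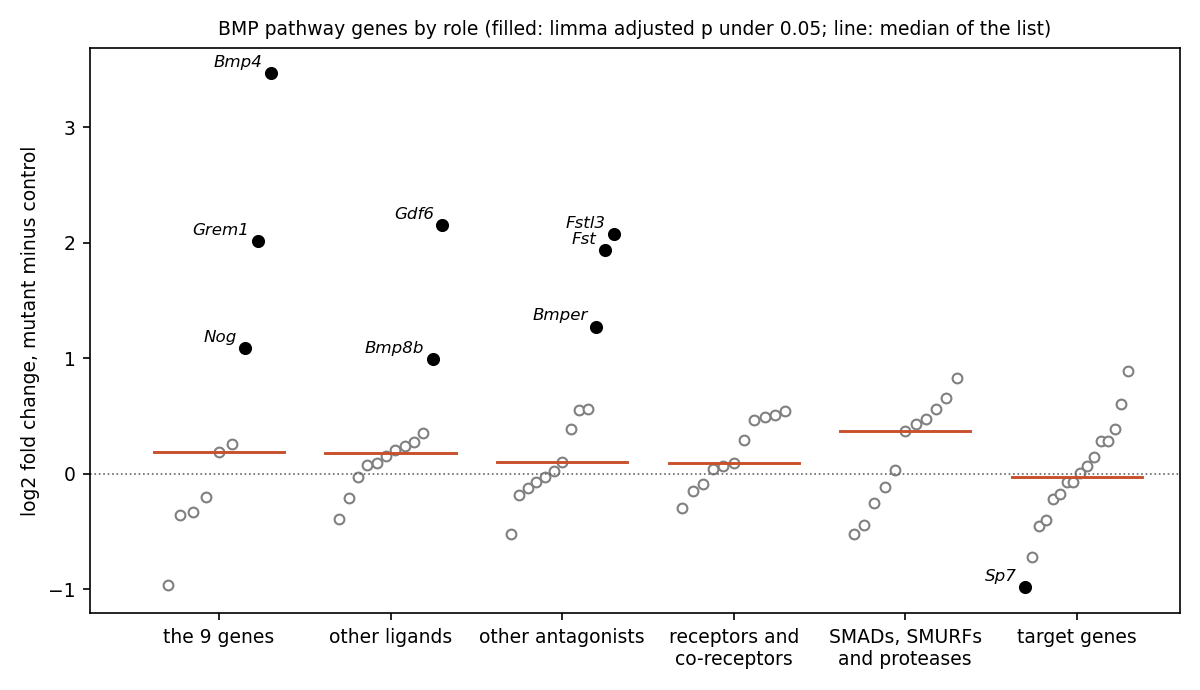
Log2 fold change of mutant against control (vertical axis) for the 9 genes and the other BMP pathway genes, in columns by role, with genes that passed a limma adjusted p of 0.05 filled and named and the median of each list as a line. The called rises lie among ligands and antagonists, receptors and transducers hold no called gene, and Sp7 is the called target gene and lies below 0.

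Markers of other cells moved with the genotypes or with control 3, and their part in the results above was not tested. Of 9 macrophage markers, 6 rose and none fell, where 2.59% of all transcript clusters rose. The mean signal of these markers was 9.37 to 9.49 on the control and 10.47 to 10.75 on the mutant arrays. All 9 were above background on every array. Of 8 endothelial markers Kdr, a VEGF receptor gene, rose (log2 fold change 1.10 ± 0.16, SE, limma adjusted p = 0.00624) and 7 did not pass, and their mean was 10.61 to 10.69 in the controls and 10.44 to 10.72 in the mutants. Of 9 smooth muscle markers Tagln rose (2.92 ± 0.31, SE, limma adjusted p = 0.00108), Synpo2 fell (-2.64 ± 0.33, SE, limma adjusted p = 0.00286) and 7 did not pass. Acta2 was at 14.04, 15.76 and 17.57 in the controls and from 17.67 to 17.85 in the mutants. Among 10 mesenchyme markers only Amhr2, the locus that carries Cre in the mutants, fell, none rose and 9 did not pass. The means of this list, Amhr2 included, were 11.26 to 11.47 in the controls and 10.55 to 11.00 in the mutants. Amhr2 alone lowers the mutant means, and the means without it were not taken. Of 6 kidney and Wolffian duct markers, 4 were below background on all arrays. In control 3 the means of the urothelial and smooth muscle markers were high, but Tagln and Des lay within the range of the other controls. The same held for the urothelial Upk3b, at 13.39 beside 13.15 and 13.40 in the other controls and 13.10 to 13.15 in the mutants. Krt5 was below background on every array. On that array Bmp4, Bmp6, Grem1, Nog and Chrdl1 were each at their highest control value and Bmp7 at its lowest. Without that array the changes of Bmp4, Grem1 (2.20 ± 0.29, SE), Nog and Bmp7 were each larger in size than over all arrays. This follows from those control values and is not a separate result. Those of Bmp2, Bmp6 and, by little, Bambi were larger as well, and those of Bmp5 and Chrdl1 were smaller.

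**Figure D4:**
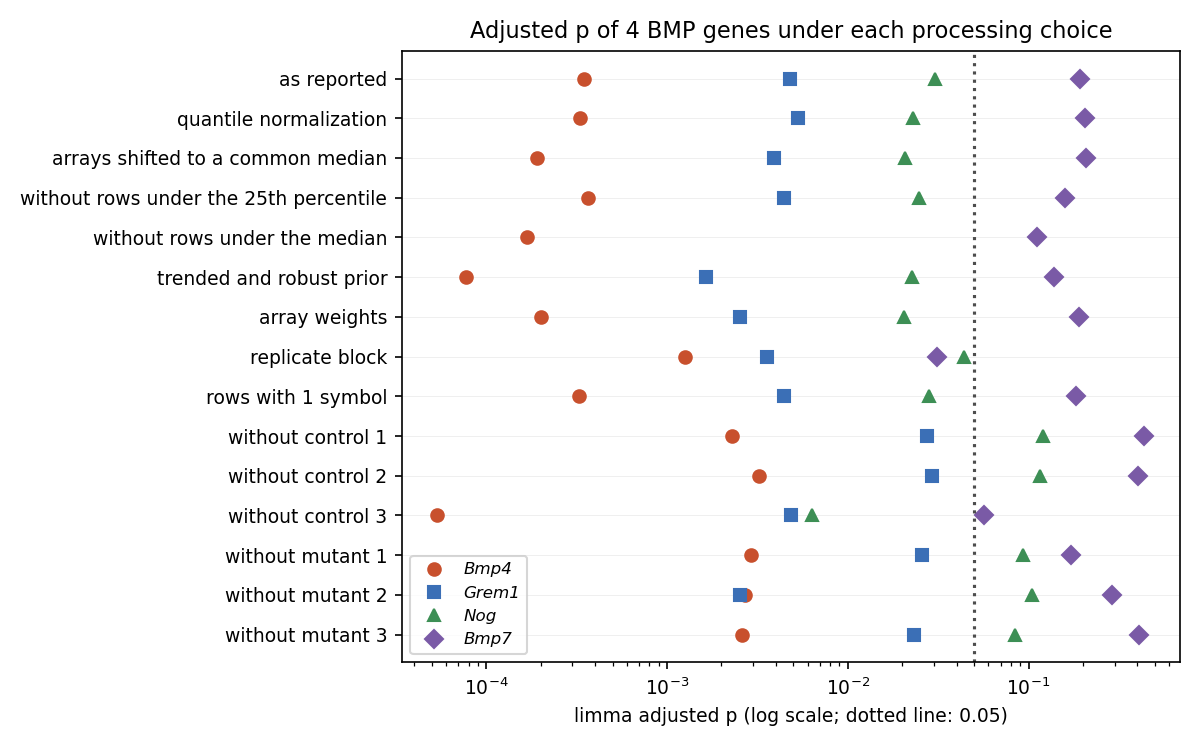
Limma adjusted p (horizontal axis, log scale, dotted line at 0.05) of Bmp4, Grem1, Nog and Bmp7 under the reported fit and each alternative (rows). Bmp4 lies left of the line under every setting shown, as does Grem1 where it was tested, Nog crosses it in 5 of 6 leave-one-out fits, and Bmp7 lies left of it only with the replicate block (0.0313). Grem1 and Nog have no point without rows under the median signal, since their own rows are left out there.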

How the data were processed

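Log2 signals of the 6 arrays were deposited by the authors as 1 table of 28846 rows. Transcriptome Analysis Console 4.0 is named in the submitters' processing notes. How probes were summarised and normalized is not stated there, nor is a genome build. Values were used as deposited. Control rows (6640) were left out and 22206 transcript clusters tested, of which 19572 had 1 gene symbol in the platform's probe table and 2634 were not listed. Groups came from the labels, which call the samples biological replicates. The number of arrays limits the precision.

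The model, limma 3.58.1 (lmFit, eBayes) in R 4.3.3, was two-sided and had genotype as its single term. Benjamini-Hochberg adjustment ran over all tested rows, with a threshold of 0.05. The fit was tested on simulated data with 200 changed rows among 22206. It called 34% of the changes of 1 log2 unit and 93% of those of 2, and 4 unchanged rows. A change of 1 log2 unit was therefore often not called. Permutation tests used scipy 1.17.1, and figures matplotlib 3.10.9. The members and lists were chosen with earlier results of these data known.

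The text names all 9 members, every called gene and up to 4 further genes of smallest p in each pathway list, the 5 genes nearest to each called member (not for Grem1, which was mostly below background), and Amhr2, Lats1 and Lats2. Any other gene was chosen after seeing its values. Alternatives were quantile normalization, a common array median, filters on dim rows, a trended and robust prior, array weights, a replicate block, rows with 1 symbol and each array left out. The labels number the replicates in both groups, but same-numbered arrays did not deviate together (correlations of deviations from the group means 0.0078, 0.042 and -0.0030), so they were not treated as pairs.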

Additional observations from a re-analysis of the deposited data

How the results depend on the processing

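Bmp4 was called under all 14 alternatives and Grem1 under the 13 that tested it. Nog was called under the 7 alternatives that tested it with all arrays, and in 1 of the 6 fits without an array. Leaving out 1 array gave 2 to 3 called members, 360 to 697 called transcript clusters, 305 to 565 rises and 55 to 132 falls (main counts 723, 575 and 148), and 1 to 3 called other ligands and 0 to 1 called target genes. Chrdl1 then ranged from -0.42 to 0.11 on the log2 scale, being above 0 without control 3 (0.11) or mutant 1 (0.0043), Bmp15 from -0.037 to 0.58, being below 0 without control 2, and Bmp3 from -0.20 to 1.15, being below 0 without control 1 (-0.11) or control 2 and called without control 3. Leaving out rows under the median signal removed 4 members, so that 1 of the 5 tested was called, and gave 0 other ligands, 1 transducer (Smad6) and 257 falls. Without rows under the 25th percentile 1 other ligand was called. With the trended and robust prior 2 transducers, 2 targets and 243 falls were called. With the replicate block 4 members (Bmp7 added, limma adjusted p = 0.0313), 1 other ligand, 0 targets and 633 transcript clusters were called. Differences of change between Bmp4 and Nog, Bambi, Bmp2 and Bmp7 kept their sign with quantile normalization and in all 6 fits without an array, where the smallest possible exact permutation p is 0.2. Signals near background or below the negative-control medians limit what can be read of Grem1, Nog, Bmp2, Chrdl1, Gdf6, Bmp8b and Sp7.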
